A study of Mus musculus with 20 samples.

Results

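The 76 cytosolic ribosomal protein genes of the mouse were followed through 12 RNA-seq libraries of TH17 cells, the CD4 T cells that make interleukin-17. They are the rows of the count tables whose symbol is Rpl or Rps followed by a number, with an optional final a or x, and Rplp0, Rplp1, Rplp2 and Rpsa. This name rule found 76 of 24862 gene rows. Of these, 30 encode proteins of the small (40S) subunit and 46 proteins of the large (60S) subunit, 3 of which (Rplp0, Rplp1 and Rplp2) form its P-stalk. The rule used no measured value. It misses a few genes that also encode proteins of the ribosome, such as Fau, Rack1 and Rps3a1, which were kept as a list of their own.

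The libraries form 6 groups of 2, all from C57BL/6 mice. The CNS and ileum groups are GFP+ TH17 cells sorted from the central nervous system (CNS), which they had infiltrated, and from the ileum, 50000 cells per sample. Ad-control and Ad-c-Rel are TH17(β) cells, grown from naive CD4 T cells with 2 ng/ml TGF-β1 and 20 ng/ml IL-6, with a control or with overexpressed c-Rel, a subunit of the transcription factor NF-κB. The miR-21-/- and Control groups are TH17(23) cells, called pathogenic in the labels, grown with 20 ng/ml each of IL-1β, IL-6 and IL-23 from mice without or with the microRNA miR-21. All cultured cells were also stimulated through CD3 and CD28 under antibodies to IL-4 and IFN-γ. Neither the GFP reporter nor the age of the mice is named. Nor do the labels say that the 2 replicates of a group are separate animals or cultures, so every p-value is set against a spread that could be technical. The comparisons address what sets TH17 cells of the CNS apart from those of the ileum, and what added c-Rel and the loss of miR-21 change.

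Each ribosome carries a copy of nearly every one of these proteins, so their genes are usually expressed in step. Their mRNAs belong to the 5′ TOP class: transcription starts at a C followed by a run of pyrimidines, the terminal oligopyrimidine tract. When the kinase mTOR is active this tract lets them be translated, and when mTOR is off the protein Larp1 holds them back. T cells that leave rest and divide make many ribosomes, which makes this family one of the most heavily transcribed in activated lymphocytes. RNA counts measure the mRNAs and not their translation or the number of ribosomes.

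The tract can be read from the DNA around the transcription start. The RefSeq promoter table (GRCm38.p6) had an entry for 56 of the 76 genes. Below are 30 bases around the annotated start of 6 members named in the comparisons, from 10 bases before the start (Rpl38, Rps27, Rps26, Rplp2, Rps13 and Rplp0, 5′ to 3′). Capitals mark the run of C and T that opens with a C. They were chosen to show a tract that begins at the annotated start (Rpl38), tracts that begin before it (Rps27, Rplp2) or after it (Rps26, Rps13), and a member with none (Rplp0). The Rps27 run also has a C at the start itself. The Rps13 run begins 12 bases after the start and is 6 bases long, the shortest length counted.
Rpl38: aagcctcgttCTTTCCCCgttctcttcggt
Rps27: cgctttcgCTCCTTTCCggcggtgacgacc
Rplp2: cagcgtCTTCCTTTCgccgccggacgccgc
Rps26: gcaagccgccggatCCTCTTTCgagtcttg
Rps13: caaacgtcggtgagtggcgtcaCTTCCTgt
Rplp0: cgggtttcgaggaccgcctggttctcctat

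These windows lie at chr11:114668570-114668599 (plus strand) for Rpl38, chr3:90213629-90213658 (minus) for Rps27, chr7:141447641-141447670 (plus) for Rplp2, chr10:128626487-128626516 (minus) for Rps26, chr7:116334171-116334200 (minus) for Rps13 and chr5:115559457-115559486 (plus) for Rplp0. Annotated starts can be off by a few bases, and several members have more than 1. A C exactly at the annotated start, followed by at least 5 C or T, was found in 11 of the 56 members (19.6%), against 2.01% of 18044 genes with a promoter entry. Within 10 bases before to 30 after the start, such a run was found in 38 of 56 members (67.9%), against 31.1% of all genes. The letters CGGAAG, searched on both strands of 300 bases (250 before the start and 50 after), were in 39 members (69.6%) against 23.3% of all genes. CGGAAG is the core that ETS family factors such as GABP bind. CACGTG, the E-box bound by Myc, was in 6 members (10.7%) against 9.13% of all genes, and TATAAA in 6 (10.7%) against 14.2%. The letters GGG, then 2 free bases, then TTTCC, a form of the NF-κB site, were in 0 of 56 against 1.85% of all genes. These matches describe letters in a window and show neither binding nor its absence.

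A few facts of the whole series bear on what follows. Gene counts summed to 1.54e+07 to 1.99e+07 in the CNS, ileum, Ad-control and Ad-c-Rel libraries and to 3.28e+07 to 3.67e+07 in the miR-21-/- and Control libraries. Rel, the gene of c-Rel, stood at 57.5 and 61.9 CPM (gene counts scaled to a total of 1000000) in Ad-c-Rel against 10.8 and 7.02 CPM in Ad-control, as its label says. Mir21a, the short precursor gene of miR-21, had 0 counts in both miR-21-/- libraries and 25 and 20 in Control, which counts the locus and not the mature miR-21. The 12 T cell identity genes were present in every group, with a summed level between 3556 and 7921 CPM. The summed level of 7 TH17 genes, Il17a, Il17f and Il23r among them, was 637 and 599 CPM in CNS, 10536 and 11502 CPM in ileum, 3968 and 4235 CPM in Ad-control, 7316 and 7278 CPM in Ad-c-Rel, 805 and 354 CPM in miR-21-/- and 2482 and 1704 CPM in Control.

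The share of all gene counts that the 76 genes held was the first measure compared. It was 3.26% and 3.74% in the 2 CNS libraries and 3.71% and 3.87% in the ileum libraries. In Ad-control it was 3.28% and 3.07%, and in Ad-c-Rel 3.16% and 2.96%. In miR-21-/- it was 10.9% and 12.6%, and in Control 9.32% and 9.39%. The CNS and ileum libraries overlapped, the Ad libraries overlapped, and both miR-21-/- libraries lay above both Control libraries. With 2 against 2 libraries, an exact two-sided permutation test of such a share cannot go below p = 0.333, so no test is given. Counting error was small: the 95% exact binomial interval of CNS replicate 1 was 3.25% to 3.27%, and it covers counting error only, since reads were not marked by molecular identifiers.

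**Figure D1:**
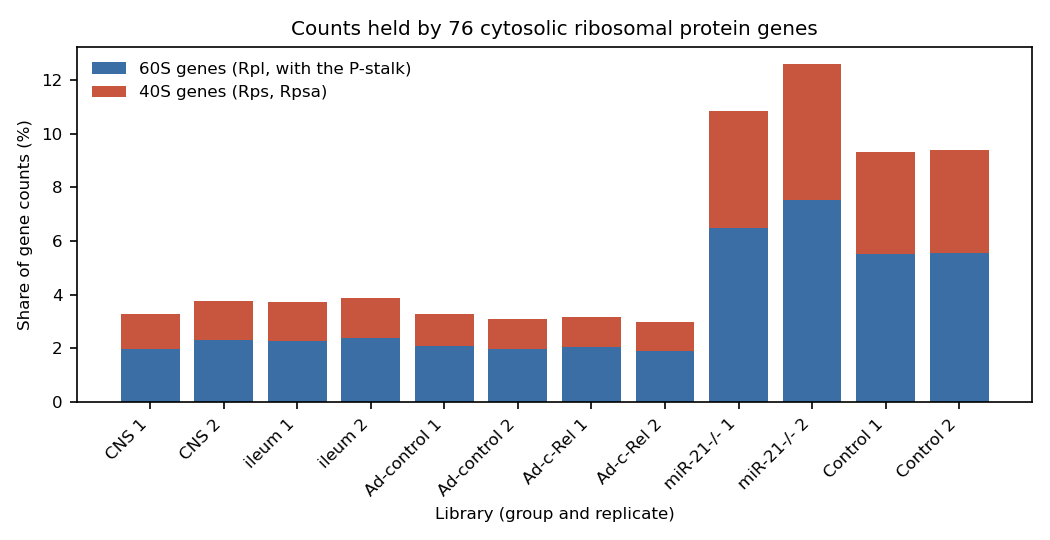
Share of all gene counts (percent) held by the 76 cytosolic ribosomal protein genes in each of the 12 libraries, as stacked bars for the 60S genes (below) and the 40S genes (above). The first 8 libraries lie between 2.96% and 3.87%, and the 4 miR-21-/- and Control libraries between 9.32% and 12.6%.

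The split between the subunits was steadier than the total. The 40S genes held 39.5% and 38.8% of member counts in CNS, 39.0% and 39.1% in ileum, 36.2% and 35.7% in Ad-control, 36.0% and 35.8% in Ad-c-Rel, 40.4% and 40.2% in miR-21-/- and 40.7% and 40.8% in Control. Within each pair of groups the 4 values lay less than 1 percentage point apart, whatever the total did.

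In CNS against ileum, most ribosomal protein mRNAs stood lower in the CNS libraries under TMM scaling, and few of the differences passed the test. Rplp0, the scaffold of the P-stalk where elongation factors dock, and Rps13, a 40S protein that binds the central domain of the 18S ribosomal RNA, were lower in CNS. These were the 2 of 74 tested members that fell by the test, and 0 rose. Over all 12038 genes tested, 5.66% were called lower and 4% higher (edgeR quasi-likelihood F test, Benjamini-Hochberg adjusted p below 0.05), so in this fit the share of members called is not above that of genes at large. DESeq2 called 15 of 75 members lower, against 10.8% of all genes, and the fit over 12 libraries 20 of 74, against 14.6%. Of the 76 members, 74 passed the filter on low counts; Rpl26 and Rpl30, near 0 throughout, did not.

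Rplp0 (chr5:115559467-115563729, GRCm38.p6) stood at 1013 and 1133 TMM-scaled CPM in CNS against 1662 and 1552 in ileum. Its fold change was 0.668, or −0.58 on the log2 scale (standard error, SE, 0.116, edgeR adjusted p = 0.0386). Rps13 (chr7:116331507-116334190) stood at 209 and 178 TMM-scaled CPM in CNS against 331 and 319 in ileum, a log2 fold change of −0.75 (SE 0.162, edgeR adjusted p = 0.0492). For both genes each CNS library was below each ileum library. Both calls were lost when either ileum library or CNS replicate 1 was left out, and the Rps13 call also without CNS replicate 2. Neither gene was called under library size or T cell identity scaling. Each SE is derived from the F statistic and adds nothing to the test.

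The other P-stalk genes, whose acidic proteins bind Rplp0 in pairs, went the same way by less. Rplp1 stood at 294 and 367 TMM-scaled CPM in CNS against 449 and 458 in ileum (log2 fold change −0.46, SE 0.162, edgeR adjusted p = 0.165). Rplp2 stood at 209 and 308 against 279 and 319, and its groups overlapped (−0.21, SE 0.229). Rpsa, a 40S protein also known as the laminin receptor, stood at 621 and 606 against 799 and 798 (−0.38, SE 0.114, edgeR adjusted p = 0.113). None of these 3 differences passed the test in this fit. DESeq2 called Rpsa lower (DESeq2 adjusted p = 0.0108), and the fit over 12 libraries called Rplp1 lower (edgeR adjusted p = 0.0374).

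Several members with known roles of their own, picked for those roles after the values were seen, lay in the same range. Rps6, the 40S protein that S6 kinase phosphorylates when mTOR is active, stood at 906 and 997 TMM-scaled CPM in CNS against 1278 and 1258 in ileum (log2 fold change −0.41, SE 0.112, edgeR adjusted p = 0.0875). Rpl5, which with Rpl11 carries the 5S ribosomal RNA and can bind the p53 regulator Mdm2, stood at 342 and 334 against 408.1 and 408.5 (−0.27, SE 0.131). Rpl11 stood at 45.9 and 56.8 against 62.3 and 70.3 (−0.37, SE 0.279). Rpl10, among the last proteins to join the 60S subunit, stood at 717 and 807 against 846 and 928 (−0.22, SE 0.128). In these 4 genes both CNS libraries were below both ileum libraries, and no difference passed the test in this fit. Rps6 was called lower in DESeq2 (DESeq2 adjusted p = 0.00783) and in the fit over 12 libraries (edgeR adjusted p = 0.0232).

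Across the family, 71 of 74 tested members had a fitted log2 fold change below 0, while 47.3% of all tested genes did. The median was −0.30 among members and 0.08 over all genes tested. In 50 of 74 members both CNS libraries were lower than both ileum libraries, against 27.5% of all tested genes, and in 0 members were both higher, against 32.3%. At an unadjusted p below 0.05, 23 of 74 members were lower and 0 higher, against 13% and 11.4% of all genes. The 40S genes (median −0.34) and the 60S genes (median −0.30) did not stand apart. The 3 members above 0 were Rpl22, Rps19 and Rpl29, named here because their count was small. Rps19, a 40S protein mutated in Diamond-Blackfan anaemia, stood at 819 and 957 TMM-scaled CPM in CNS against 836 and 833 in ileum (0.09, SE 0.129). Rpl22, an RNA-binding 60S protein needed for αβ T cell development, stood at 61.1 and 80.7 against 67.7 and 64.6 (0.10, SE 0.271). Rpl29 stood at 190 and 216 against 217 and 181 (0.03, SE 0.182). All 3 groups of values overlapped.

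The size and even the direction of the family's shift depended on what the libraries were scaled to. Scaled to library size alone, the median of the members was −0.11 and that of all genes 0.28. Scaled to the summed counts of 12 T cell identity genes, the median of the members was 0.15, 56 of 74 lay above 0, 0 were called lower and Rps19 was called higher (0.54, edgeR adjusted p = 0.0483). That scaling called 8.04% of all genes higher and 3.17% lower, and the median of all genes rose to 0.53. A change of scaling shifts all genes alike, so the distance between the median of the members and that of all genes, −0.38 under TMM, hardly depends on it. That distance did depend on single libraries: it was −0.16 without CNS replicate 1, −0.58 without CNS replicate 2 and −0.59 without ileum replicate 1. Of the genes described above, Rplp2, Rpsa, Rps6, Rpl5, Rpl11 and Rpl10 turned to values between 0.04 and 0.24 under the T cell scaling, while Rplp0 and Rps13 stayed below 0.

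The libraries of a group also differed from each other. Genes with at least 1 count numbered 14224 and 11545 in the CNS libraries and 13927 and 10771 in the ileum libraries. The common dispersion, which measures the spread between replicates over all genes tested, was 0.554 here. It was 0.00434 in Ad-c-Rel against Ad-control and 0.0328 in miR-21-/- against Control. CNS replicate 2 was higher than CNS replicate 1 in 67 of 74 members, with a median difference of 0.24 on the log2 scale (replicate 1 minus replicate 2: −0.24). Relative to the ileum mean, the median member stood at −0.45 in CNS replicate 1 and −0.21 in CNS replicate 2. Without CNS replicate 1 the median of the members was −0.24 and that of all genes −0.09, 61 of 75 tested were below 0 and 0 were called, against 5.75% of all genes called lower.

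Transcripts of other cells moved with this comparison. Of 18 myeloid and microglia markers 17 were called higher in CNS, with a summed level of 21880 and 22481 CPM against 2632 and 2758 CPM in ileum, none of them at 0 in either group. Of 8 neutrophil markers 3 were called higher, at 232 and 228 CPM against 0.800 and 0.117 CPM, with Ngp, Camp, Ltf, Elane and Mpo at 0 in ileum. Of 9 tested B and plasma cell markers 5 were called lower, at 338 and 339 CPM against 4198 and 4069 CPM, with Ms4a1 and Pax5 among those at 0 in CNS. Of 12 T cell identity genes 4 were called lower (median log2 fold change −0.53), and 6 of 7 TH17 genes. Over all genes tested, 4% were called higher and 5.66% lower. The part of these cells in the ribosomal protein values was not tested, and in such bulk samples fewer cells of a type and less RNA per cell cannot be told apart.

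**Figure D2:**
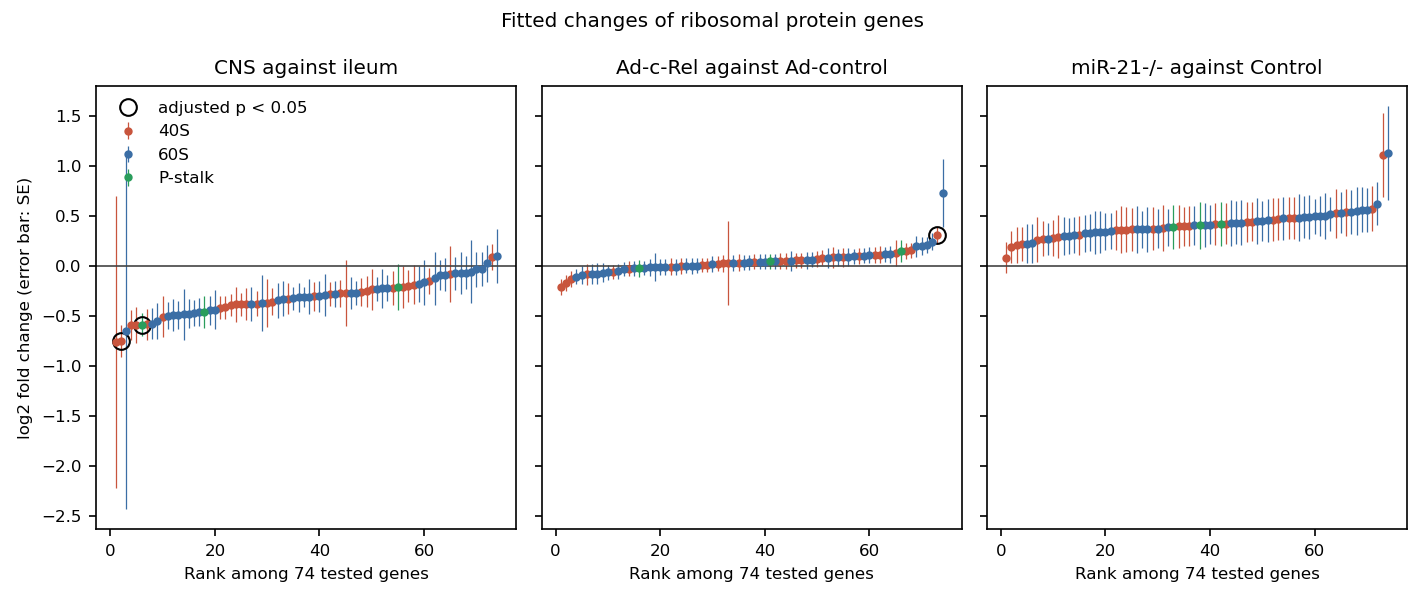
Fitted log2 fold change (y axis, bars are the SE) of the 74 tested ribosomal protein genes, ranked within each of the 3 comparisons and coloured by subunit; black rings mark an adjusted p below 0.05. In CNS against ileum 71 genes lie below 0 with 2 rings, in Ad-c-Rel against Ad-control the genes sit near 0 with 1 ring, and in miR-21-/- against Control all 74 lie above 0 with no ring.

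Other genes of the ribosome pathway gave context in CNS against ileum. Of 16 further 5′ TOP genes, mostly translation factors, 13 were below 0 (median −0.35), against 47.3% of all genes. On this list 1 gene was called lower and 1 higher, against 5.66% and 4% of all genes. Npm1, the nucleolar chaperone nucleophosmin, fell by 0.65 on the log2 scale (edgeR adjusted p = 0.0355), and Vim, the intermediate filament vimentin, rose by 0.81 (edgeR adjusted p = 0.0232). The Npm1 call was lost with any of the 4 libraries left out and under library size or T cell identity scaling, and the Vim call without CNS replicate 2 or either ileum library. The 7 host genes of small nucleolar RNAs that carry a 5′ TOP were all below 0 (median −1.12), and Gas5 fell (log2 fold change −1.32, SE 0.141, edgeR adjusted p = 0.00613). Gas5 stood at 233 and 209 TMM-scaled CPM in CNS against 562 and 547 in ileum, a clear gap between the groups. Gas5 is a non-coding 5′ TOP RNA that is broken down when ribosomes translate it. Its fold was larger than that of any member with 100 or more counts in every library.

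Of 46 genes of ribosome assembly and ribosomal RNA synthesis, 2 were called lower and 0 higher (median −0.17), against 5.66% and 4% of all genes. The 2 called were Ncl, the nucleolar protein nucleolin (−1.02, edgeR adjusted p = 0.0257), and Nop56, a core protein of the particles that methylate ribosomal RNA (0.4996-fold, edgeR adjusted p = 0.0346). Of 13 regulators of TOP mRNA translation and mTOR, Eif4e, the cap-binding factor (−1.13, edgeR adjusted p = 0.0127), and Rheb, the GTPase that switches mTOR on (−1.25, edgeR adjusted p = 0.0137), fell. Eif4ebp1, the inhibitor of Eif4e, rose (1.74, edgeR adjusted p = 0.0329). Of these 13 regulators 2 were thus called lower and 1 higher, against 5.66% and 4% of all genes. Under T cell identity scaling Ncl, Nop56 and Rheb were not called. Ncl and Nop56 were lost without ileum replicate 1, Nop56 also without CNS replicate 1 and under library size scaling, and Eif4ebp1 without either CNS library or ileum replicate 2. Of 78 mitochondrial ribosomal protein genes 0 were called in this fit, 44 were above 0 and the median was 0.24. The cytosolic family's lower position was thus not seen in its mitochondrial counterpart under the same scaling. The difference between the lists was not tested. The mitochondrial genes of smallest p, Mrps6 and Mrps30, were called lower in DESeq2 and in the fit over 12 libraries. Calls of the other mitochondrial genes in those fits are not reported here.

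In Ad-c-Rel against Ad-control, the ribosomal protein mRNAs stayed close to their control level. Rps26, a 40S protein at the mRNA exit channel, rose and was the single member called. Over all 11711 genes tested, 8.16% were called higher and 6.12% lower, so 1 of 74 higher and 0 of 74 lower are below the background. Rps26 (chr10:128624529-128626506) stood at 129 and 132 TMM-scaled CPM in Ad-c-Rel against 114 and 97.5 in Ad-control. Its fold change was 1.24, or 0.31 on the log2 scale (SE 0.0859, edgeR adjusted p = 0.0256). Both Ad-c-Rel libraries were above both Ad-control libraries. The call was lost without Ad-control replicate 2 (edgeR adjusted p = 0.143), without Ad-c-Rel replicate 1 (0.0509) and without Ad-c-Rel replicate 2 (0.128). It was also lost under library size scaling (edgeR adjusted p = 0.0813), T cell identity scaling (0.207) and in the fit over 12 libraries (0.912).

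The fitted values of the family were narrowly spread. The median was 0.04 among the 74 tested members and −0.01 over all genes, 51 members were above 0 (49% of all genes) and the middle 50% of members lay between −0.01 and 0.09. In 20 members both Ad-c-Rel libraries were higher than both Ad-control libraries, against 27.8% of all genes. In 5 members they were lower, against 28.7%; Rpl3, Rpl14, Rps2 and Rpsa were among them. At an unadjusted p below 0.05, 6 members were higher and 2 lower, against 14.8% and 13.8% of all genes. The sign of such small values depended on the scaling: 29 of 74 members were above 0 under library size scaling (median −0.01). Under T cell identity scaling 9 of 74 were above 0 (median −0.09). That scaling called 4 of 74 members lower, Rpl14, Rps2 and Rpsa among them, against 15.2% of all genes. Rps26 was not called there. The sign also depended on single libraries: 29 of 74 members were above 0 without Ad-control replicate 2 (median −0.03) and 37 of 74 without Ad-c-Rel replicate 1. The small numbers of calls here came with a small spread: the median SE of the members was 0.0790, against 0.162 in CNS against ileum and 0.213 in miR-21-/- against Control.

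Among the members always described, Rpsa had the lowest fitted value. It stood at 577 and 536 TMM-scaled CPM in Ad-c-Rel against 680 and 602 in Ad-control, with no overlap (log2 fold change −0.20, SE 0.0805, edgeR adjusted p = 0.106). Rplp0 stood at 1495 and 1429 against 1414 and 1410 (0.05, SE 0.0728), a sign that turned under library size scaling (−0.01). Rplp1 stood at 169 and 157 against 177 and 153 (−0.02, SE 0.0849), and Rplp2 at 83.4 and 89.3 against 88.6 and 66.9 (0.16, SE 0.11). The last 2 overlapped between the groups. Rps6 (0.06, SE 0.0723), Rpl5 (0.05, SE 0.0725), Rpl10 (0.03, SE 0.0781) and Rpl11 (−0.01, SE 0.139) differed by less than their errors, and the first 3 were below 0 under T cell identity scaling. The largest fitted value, 0.73 for Rpl34, rests on 16 to 36 counts per library and did not pass the test (edgeR adjusted p = 0.165).

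The genes that build ribosomes were a list of their own, and its difference from the ribosomal protein genes was not tested. Of 46 genes of ribosome assembly and ribosomal RNA synthesis, 19 were called higher in Ad-c-Rel and 1 lower, with 40 above 0 and a median of 0.25. Over all genes tested, 8.16% were called higher, 6.12% were called lower and 49% were above 0. Pno1, a 40S assembly factor, stood at 127 and 149 TMM-scaled CPM in Ad-c-Rel against 68.5 and 69.9 in Ad-control (log2 fold change 1.00, SE 0.0891, edgeR adjusted p = 1.81e-06). Nolc1, a nucleolar chaperone, stood at 30.0 and 28.0 against 16.7 and 17.9 (0.74, edgeR adjusted p = 0.000263). Mrto4, which prepares the site of the P-stalk and is replaced there by Rplp0, rose by 0.64, and Ddx21, a nucleolar RNA helicase, by 0.57 on the same scale (edgeR adjusted p = 0.00124 and 0.00140). Rpl7l1, a 60S assembly factor related to the member Rpl7, rose by 0.54 (edgeR adjusted p = 0.000593). The gene called lower was Rrp1b (−0.33), named for its small count.

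The number of assembly genes called higher was 8 without Ad-control replicate 1 (4.51% of all genes), 12 without Ad-c-Rel replicate 1 (5.91%), 10 without Ad-c-Rel replicate 2 (4.47%) and 8 under T cell identity scaling (4.47%). In the fit over 12 libraries, which called 0.13% of all genes higher, it was 0, and Pno1, Nolc1, Mrto4, Ddx21 and Rpl7l1 lost their calls. Of the 13 regulators, 1 was called higher and 1 lower: Eif4ebp1 rose (0.34, edgeR adjusted p = 0.00561) and Eif4ebp2 fell (−0.63, edgeR adjusted p = 0.0203). Of 78 mitochondrial ribosomal protein genes 2 were called higher, Mrpl17 (0.35) and Mrpl45 (0.27), and 0 lower, with a list median of 0.01. Over all genes tested, 8.16% were called higher and 6.12% lower. Eif4ebp1, Eif4ebp2, Mrpl17 and Mrpl45 each lost the call in the fit over 12 libraries and without at least 1 of the 4 libraries: Eif4ebp1 without Ad-c-Rel replicate 1, the others without Ad-control replicate 1 and again without Ad-c-Rel replicate 2, and Mrpl45 also without Ad-c-Rel replicate 1. Eif4ebp2 was also lost in DESeq2, both Mrpl genes under T cell identity scaling and Mrpl45 under library size scaling. Of 15 tested 5′ TOP genes outside the family and 7 small nucleolar RNA hosts, 0 were called by edgeR, with 2 and 1 at an unadjusted p below 0.05. The T cell identity genes and TH17 genes also moved here, against the 8.16% of all genes called higher and 6.12% lower: 4 of 12 were called higher and 1 lower, and 6 of 7 were called higher. The part of that shift in the ribosomal values was not tested.

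In miR-21-/- against Control, all 74 tested ribosomal protein genes had a fitted value above 0, against 48.2% of all genes, and none passed the test. This fit did not use the replicate number. The closing part on processing gives the calls with that number as a block, which differ. Over all 13428 genes tested, edgeR called 0% higher and 0% lower. At an unadjusted p below 0.05, 9 of 74 members were higher and 0 lower, against 9.6% and 11.4% of all genes. DESeq2 called 0 members, and 325 genes (2.63%) higher and 468 (3.79%) lower in all. The median of the members was 0.41 on the log2 scale, and that of all genes −0.02.

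The 5 members of smallest p were Rpl11, Rpl36, Rpl38, Rpl37a and Rps27. Rpl11 stood at 228 and 298 TMM-scaled CPM in miR-21-/- against 186 and 180 in Control, a fold of 1.44 (log2 0.52, SE 0.171, edgeR adjusted p = 0.183). Rpl36, a small 60S protein, stood at 607 and 886 against 488 and 477, a fold of 1.55 (log2 0.63, SE 0.217, edgeR adjusted p = 0.196). Rpl38, a 60S protein known for its part in the translation of Hox mRNAs, stood at 472 and 612 against 378 and 388 (log2 0.50, SE 0.178, edgeR adjusted p = 0.202). In each the higher value was that of miR-21-/- replicate 2, and both libraries lay above Control.

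Rpl37a, a zinc-binding 60S protein, stood at 658 and 906 TMM-scaled CPM against 524 and 553 (log2 0.54, SE 0.202, edgeR adjusted p = 0.216). Rps27, whose start site tract is printed above, had 57 and 89 counts against 41 and 37 (log2 1.12, SE 0.422, edgeR adjusted p = 0.218). Such low counts of a ribosomal protein gene are taken up further on.

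The P-stalk genes and Rpsa lay with the rest. Rplp0 stood at 4007 and 5242 TMM-scaled CPM in miR-21-/- against 3458 and 3507 in Control (log2 fold change 0.41, SE 0.235, edgeR adjusted p = 0.355). Rplp1 stood at 2221 and 2976 against 1980 and 1966 (0.40, SE 0.221), and Rplp2 at 1039 and 1469 against 911 and 957 (0.43, SE 0.218). Rpsa stood at 3717 and 4949 against 3380 and 3348 (0.37, SE 0.236). Rps6 (0.38), Rpl5 (0.44) and Rpl10 (0.23) were in the same range, with SEs of 0.216, 0.227 and 0.198. None of these genes overlapped between the groups and none passed the test in this fit.

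In 73 of 74 members both miR-21-/- libraries were higher than both Control libraries, against 27% of all genes tested, and in 0 were both lower, against 28.9%. All 74 members also stayed above 0 under library size scaling (median 0.33) and T cell identity scaling (median 0.54). The 40S genes (median 0.39) and the 60S genes (median 0.42) lay close together.

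The 2 knockout libraries differed from each other by as much as the groups did. In 74 of 74 members miR-21-/- replicate 2 was higher than replicate 1, with a median difference of −0.40 for replicate 1 minus replicate 2, while Control replicate 2 was higher than replicate 1 in 67 of 74 members by a median of −0.08 in the same sense. Relative to the Control mean, the median member stood at 0.19 in miR-21-/- replicate 1 and at 0.60 in replicate 2. Without replicate 1 of the knockout the median fold change was 0.61 and 16 members were called higher, against 4.83% of all genes. Without replicate 2 the median was 0.22 and 0 members were called higher, against 0.0145%. The members were high or low together from library to library, so the 74 genes are not 74 separate measurements of the knockout.

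**Figure D3:**
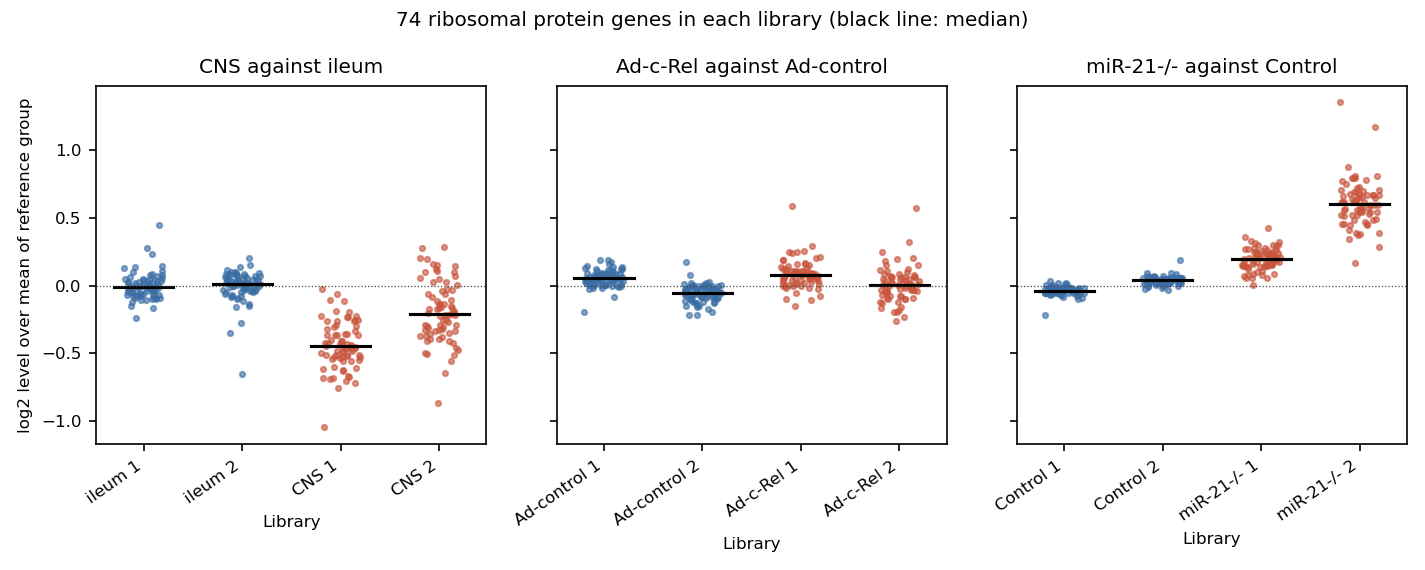
Each point is 1 of 74 ribosomal protein genes in 1 library, as the log2 of its TMM-scaled level over the mean of the reference group (ileum, Ad-control or Control), with 0.5 CPM added; blue marks the reference group, red the other, and the black line is the median. The medians of the 2 CNS libraries are −0.45 and −0.21, of the 2 Ad-c-Rel libraries 0.07 and 0.00, and of the 2 miR-21-/- libraries 0.19 and 0.60.

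Other 5′ TOP genes lay on the same side in the knockout. Of 16, 15 were above 0 (median 0.33), with Eif3f (0.48, SE 0.182) and Eif3e (0.48, SE 0.171), subunits of the initiation factor eIF3, at the smallest p. The ribosomal proteins outside the naming rule were above 0 in 4 of 4 (median 0.45), with Fau, which encodes Rps30 fused to a ubiquitin-like protein, at 0.55. All 7 small nucleolar RNA hosts were above 0 (median 0.83). At an unadjusted p below 0.05, 6 of these 7 were higher and 0 lower, against 9.6% and 11.4% of all genes. Gas5 stood at 498 and 821 TMM-scaled CPM against 333 and 364 (0.92, SE 0.259, edgeR adjusted p = 0.158). DESeq2 called Gas5 and Snhg5 higher (DESeq2 adjusted p = 0.00996 and 0.0176), against 2.63% of all genes.

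The assembly genes did not share that direction: 33 of 46 were below 0 (median −0.18), with Rrp12 at −0.53 (SE 0.138) and Sbds, which helps to free new 60S subunits of the factor Eif6, at 0.54 (SE 0.173). Of the regulators, Eif4ebp2 was at 0.36 and Tsc1, part of the complex that restrains Rheb, at 0.53. Mitochondrial ribosomal protein genes had a median of −0.03. In all of these lists 0 genes were called by edgeR, as among all genes tested. TH17 genes were lower in the knockout libraries, as given above, with 4 of 7 at an unadjusted p below 0.05, against 11.4% of all genes. The knockout library with the higher ribosomal values, replicate 2, had the lowest of these summed levels. Control replicate 2 likewise had the lower TH17 sum of its group (1704 CPM against 2482 CPM) and the higher value in 67 of 74 members. Whether ribosomal and TH17 levels are linked was not tested.

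**Figure D4:**
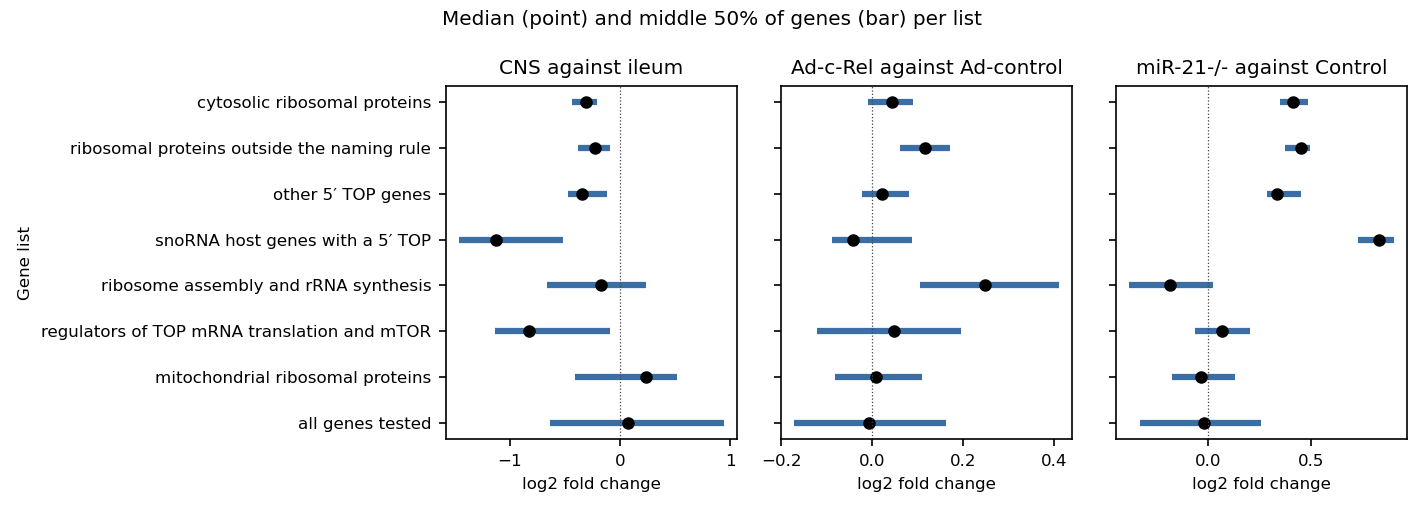
Median (black point) and middle 50% (blue bar) of the fitted log2 fold changes in each gene list, for the 3 comparisons; each panel has its own x axis. The cytosolic ribosomal proteins have medians of −0.30, 0.04 and 0.41, and the assembly genes −0.17, 0.25 and −0.18.

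Levels across the 6 groups were compared gene by gene in CPM, with no test, since the 3 pairs differ in source or culture and not all were made with the same library kit, which cannot be told apart. Counts were not corrected for transcript length, so only the same gene is compared between groups. The median member stood at 355 CPM in CNS, 406 CPM in ileum, 208 CPM in Ad-control, 209 CPM in Ad-c-Rel, 1438 CPM in miR-21-/- and 1121 CPM in Control. The 4 members of highest mean level over the 12 libraries were Rpl13, Rpl4, Rplp0 and Rpl3, an order that mixes groups of different profile, with means of 2314, 2285, 2269 and 2228 TMM-scaled CPM.

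Although the median was several times higher in Control than in Ad-control, the genes did not differ by a common factor. Among the 72 members with at least 100 counts in every library, 70 were higher in Control than in Ad-control, with a median log2 ratio of 2.40. Rps12, a protein of the beak of the 40S subunit, was 31.4-fold higher: it stood at 61.5 and 50.4 CPM in Ad-control and at 1739 and 1769 CPM in Control. Rps21, a small 40S protein, was 26.4-fold higher, from 19.8 and 15.6 CPM to 467 and 466 CPM. Rpl12, at the base of the P-stalk, was 18.7-fold higher, from 86.6 and 81.8 CPM to 1588 and 1562 CPM.

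At the other end, Rpl13 was lower in Control. It stood at 2930 and 2840 CPM in Ad-control and at 1773 and 1781 CPM in Control. In each of these 4 genes the 2 groups lay far apart relative to their replicates. The 5 most counted members held 34.2% of member counts in Ad-control and 17.3% in Control. Rpl3, Rpl4 and Rplp0 were among these 5 in both groups.

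The profile over members was kept within a pair and differed between pairs. Across the 72 genes, the log2 mean CPM of 2 groups correlated at r = 0.988 for CNS and ileum, 0.999 for Ad-control and Ad-c-Rel and 0.992 for miR-21-/- and Control. Between the sorted and the Ad groups r was 0.930 to 0.940, and between either of these and the miR-21 cultures 0.604 to 0.714. These values run across genes, which are not independent replicates and share each library's preparation, and are descriptions. By the labels' protocols, SMART-Seq v4 for low input served the sorted cells and TruSeq Stranded Total RNA the miR-21-/- and Control cells, while the protocols do not clearly tie the Ad libraries to a kit. Reads with several alignments make up 0% of the table total in the 4 miR-21-/- and Control libraries and 2.25% to 3.52% elsewhere. Whether near-identical copies were counted alike in all tables was not tested.

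The Ad libraries and the sorted libraries differed in single genes despite a like total. Rps29, a small zinc-binding 40S protein picked after its values were seen, stood at 63.9 and 51.0 CPM in Ad-control and 59.6 and 57.3 CPM in Ad-c-Rel, against 359 and 439 CPM in CNS, 430 and 475 CPM in ileum and 462 and 469 CPM in Control. The sorted libraries were thus near the Control cultures for this gene and several times above the Ad cultures. For Rps12 the sorted libraries were near the Ad cultures instead, at 88.7 and 84.9 CPM in CNS and 100.2 and 114 CPM in ileum.

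**Figure D5:**
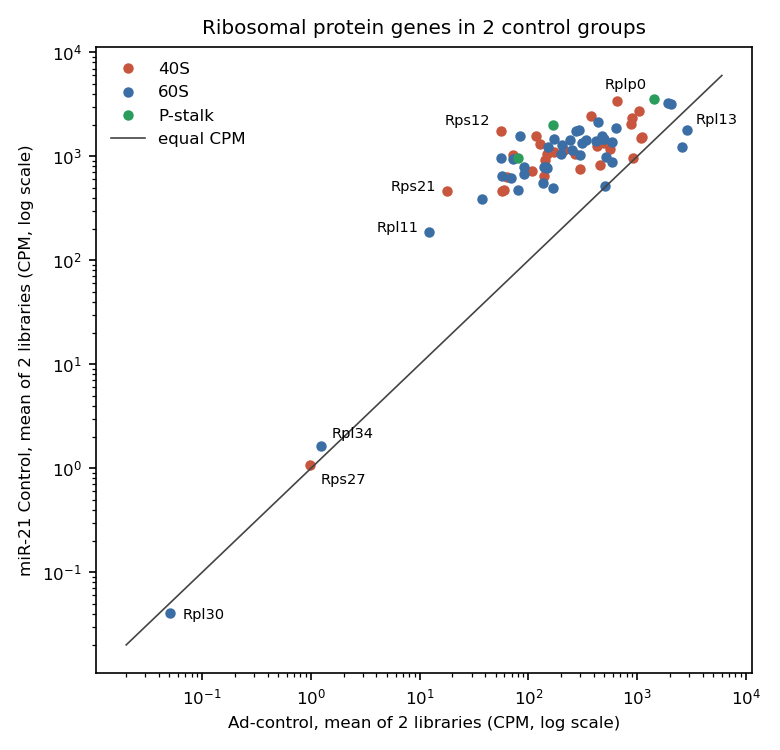
Mean CPM of each ribosomal protein gene in Ad-control (x axis, log scale) and in the miR-21 Control group (y axis, log scale), 2 libraries each, coloured by subunit, with a line of equal CPM. Rps12 lies 31.4-fold above the line, Rpl13 lies below it, and Rps27, Rpl34 and Rpl30 lie far below all others on both axes.

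A last set of members was nearly without counts in every group. Rpl26 had 0 counts in all 12 libraries, which allows a level of up to 0.0817 to 0.195 CPM per library (3 counts). Rpl30 had 2 and 0 counts in CNS, 3 and 19 in ileum and 0 to 3 in the other 8 libraries. Rps27 had between 14 and 89 counts and Rpl34 between 16 and 146 per library. Rpl11, the lowest of the other members in Ad-control, stood at 12.3 CPM there.

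These 4 encode proteins of the cytosolic ribosome, and the mouse genome holds processed copies of many ribosomal protein genes. The RefSeq table names 6 pseudogenes after Rpl26, 10 after Rpl30, 2 after Rpl34 and 2 after Rps27. It names 23 after Rps12, whose levels are given above. Over the 72 members, the number of named pseudogenes had a correlation of 0.019 with the log2 ratio of Control to Ad-control. Those 72 leave out these 4 genes, so the value does not bear on their low counts. The part of pseudogenes in the low counts was not tested. How the authors' counting shared reads between a gene and its copies is not given in the sources used here, so the values of Rpl26, Rpl30, Rps27 and Rpl34 are uncertain as levels of those genes, and their part in the fold changes above rests on few counts.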

How the data were processed

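RNA was measured in 12 libraries, 2 in each of 6 groups assigned from the sample labels. The authors deposited 1 table per library of raw counts of reads per gene, and these counts are the values used. Per the submitters' processing notes, the mm10 build and TopHat2 2.1.0, HTSeq 0.11.0, Trim Galore 0.4.4, CASAVA 1.4, Bowtie2, SAMtools, HOMER and DESeq2 were used, with no role given for each. The strand setting of the counting is not given there. The 5 summary lines of each table, which name no gene, held 14.7% to 26.1% of its total and were left out. No column of another sample was present (0), and the 8 ATAC-seq samples were not analysed here.

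The 3 comparisons were fitted separately, over 4 libraries apiece, in edgeR 4.0.16 (R 4.3.3, limma 3.58.1): filterByExpr, TMM scaling, a two-sided quasi-likelihood F test and Benjamini-Hochberg adjustment over all genes tested, with calls at an adjusted p below 0.05. The design leaves 2 residual degrees of freedom. The SE was taken as the size of the log2 fold change divided by the root of F. TMM-scaled CPM are counts over the effective library size. The test was checked on simulated data, and the outcome is not reported here. Named genes are called members at 5 CPM or more (at most 8 each way) or, with none, the 5 of smallest p. Added to these are the 4 highest and 4 lowest members, members with 0 counts in a library, Rplp0, Rplp1, Rplp2, Rpsa, and per list up to 4 called genes or the first 2 by p. Other genes are named as chosen after their values were seen, and the values of some genes are not reported here. Members, lists and tests were chosen with earlier results of these data known.

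Alternatives were other scalings, no filter on low counts, the replicate number as a block, DESeq2 1.42.0, 1 fit over 12 libraries and each library left out. Scaling to T cell identity genes for the cultured cells, and shares that include the summary lines, were added after seeing the data.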

Additional observations from a re-analysis of the deposited data

How the results depend on the processing

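Of the counts of called members, summed ratios and shares, 70 alternative values kept their side and size, 34 moved and 1 reversed. Of those for named genes, 740 kept direction and side of the threshold, 64 gained a call, 57 lost one and 25 reversed. The cause of a change was not tested unless the alternative itself removed libraries. For CNS against ileum, 2 members were called lower. That count was 0 under library size scaling (4.25% of all genes lower), 7 without the low-count filter (8.29%), 0 under T cell identity scaling, which called 1 higher, 15 in DESeq2 (10.8%), 20 in the fit over 12 libraries (14.6%), and 0 to 2 with a library left out. The log2 ratio of summed member CPM, −0.31, became −0.11 under library size and 0.14 under T cell identity scaling, and ranged from −0.43 to −0.20 with a library left out. Under T cell identity scaling Rplp2 turned to 0.24, Rpsa 0.074, Rps6 0.039, Rpl5 0.18, Rpl11 0.080 and Rpl10 0.23. With a library left out, Rplp2 ranged from −0.55 to 0.0091 (above 0 without CNS replicate 1), Rpl22 from −0.15 to 0.25 and Rps19 from −0.065 to 0.16 (below 0 without CNS replicate 2), and Rpl29 from −0.10 to 0.17 (below 0 without CNS replicate 2 or ileum replicate 2).

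For Ad-c-Rel against Ad-control, 1 member was called higher, and 0 under library size scaling, T cell identity scaling and the fit over 12 libraries, with 0 to 2 as a library was left out. No member was called lower (0), and 1 without the low-count filter (Rpsa), 4 under T cell identity scaling (15.2% of all genes) and 0 to 1 with a library left out. The summed log2 ratio of 0.01 became −0.053 under library size and −0.12 under T cell identity scaling. Under library size scaling Rplp0 was at −0.0087, Rpl5 at −0.010 and Rpl10 at −0.024. Under T cell identity scaling Rplp0 was at −0.080, Rps6 at −0.071, Rpl5 at −0.082 and Rpl10 at −0.097. With a library left out, Rplp1 ranged from −0.12 to 0.085 and Rpl11 from −0.095 to 0.072 (both above 0 without Ad-control replicate 1 and again without Ad-c-Rel replicate 2), Rplp2 from −0.037 to 0.37 (below 0 without Ad-control replicate 2) and Rpl10 from −0.033 to 0.10 (below 0 without Ad-control replicate 2 and again without Ad-c-Rel replicate 1). For miR-21-/- against Control, called members ranged from 0 to 16 and the summed log2 ratio, 0.40, from 0.19 to 0.59 with a library left out. As a share of all lines of the tables, members held 2.87% in CNS, 2.92% in ileum, 2.69% in Ad-control, 2.59% in Ad-c-Rel, 8.79% in miR-21-/- and 7.34% in Control.

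Replicate numbers are shared between groups, and nothing in the labels pairs the samples. Deviations of same-numbered libraries correlated at 0.108 across genes for CNS and ileum, 0.0435 for the Ad groups and 0.563 for miR-21-/- and Control. With the replicate number as a block, 3 members were called lower in CNS (6.44% of all genes), 4 higher (12.7%) and 2 lower (11.2%) in Ad-c-Rel, and 39 higher in miR-21-/- (17%). Rpl11, Rpl36, Rpl38, Rpl37a, Rps27 and Rplp2 were among these 39, from Rpl11 (edgeR adjusted p = 0.0032) to Rplp2 (0.0424). Rplp0, Rplp1, Rpsa, Rps6, Rpl5 and Rpl10 were not. The counts of Rpl26, Rpl30, Rps27 and Rpl34 are too low to show moderate differences.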

Other observations

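Genes named after ribosomal proteins but outside the naming rule gave further values. Rpl14-ps1, a pseudogene of Rpl14, had 912 to 957 counts in the miR-21-/- and Control libraries and 9 to 23 in the other 8. Rpl10l, a testis paralog of Rpl10, and Rps27rt had 0 counts in all 12 libraries. Rpl22l1, the paralog of Rpl22, stood at 73.6 and 88.6 TMM-scaled CPM in CNS against 143 and 152 in ileum (log2 fold change −0.86, SE 0.21, edgeR adjusted p = 0.0658), with no overlap. It was called lower in DESeq2 (DESeq2 adjusted p = 0.01) and in the fit over 12 libraries (edgeR adjusted p = 0.00541). Rpl7l1, called higher with c-Rel, stood at 46.9 and 27.0 TMM-scaled CPM in miR-21-/- against 75.9 and 55.1 in Control (−0.82, SE 0.294, edgeR adjusted p = 0.202).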
